A study of Mus musculus with 19 samples.

Results

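RNASeq counts were examined for 37 genes whose transcripts are typical of hepatocytes, in preparations of hepatic stellate cells (HSCs). They were 37 of the 55487 genes counted: 28 genes for secreted plasma proteins, 8 genes for metabolic enzymes, and Fabp1, an intracellular lipid carrier that belongs to neither class. The genes were chosen by name as hepatocyte genes, with earlier results of these data known. Each was matched to its Ensembl identifier by its symbol. Of the 37 genes, 36 passed the filter on low counts; Plg, the gene of plasminogen, was at 0 counts in each of the 19 samples and was not tested. Only 33 of the 36 passed when the samples of 3 to 24 h were filtered alone; Arg1, Pck1 and Hpd did not. A member that passes through the group where it is high has to differ from the other groups, so the counts of members below are descriptions.

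HSCs are the vitamin A-storing cells of the liver, and they were sorted by their vitamin fluorescence under ultraviolet light from untreated, healthy male Balb/c mice of 23 to 24 weeks of age. Cells were lysed without culture (0 h, n = 2) or kept on collagen-coated plates in medium with 10% fetal bovine serum for 3, 6, 12, 18 or 96 h (n = 3 each) or 24 h (n = 2), with fresh medium after 3 h and 24 h. The labels number the samples M1, M2 and M3; the 0 h samples are M2 and M3 and the 24 h samples M1 and M2. What the number stands for is not given in the sources used here; samples of M1 and M3 carry one date in their labels and those of M2 another. The paper describes 3 independent repeats for each time, more than the 2 samples found here at 0 h and at 24 h. A sample stands for 2 technical repeats that the counts do not separate, and the number of mice behind a sample is not given in the sources used here. In such bulk samples fewer cells of a type and less RNA per cell cannot be told apart.

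Hepatocytes make most of the proteins of blood plasma, among them albumin and other carriers, the apolipoproteins of circulating fats, clotting factors and inhibitors of proteases. They also hold the urea cycle, gluconeogenesis, the breakdown of amino acids and the cytochromes P450 that oxidise drugs. Many of these genes are driven by liver-enriched factors such as HNF1, HNF4 and C/EBP, and their messengers are among the most abundant of the liver.

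A letter pattern shared by the start regions of several members is shown first. RefSeq promoter windows (GRCm38.p6, 250 bases before to 50 after the start) were matched for 26 of the 37 genes, 27 windows in all. A half-site of HNF1, GTTAAT on either strand, was in 11 of these windows (Alb, Serpina1a, Serpina1b, Serpina1c, F2, Fga, Fgb, Gc, Vtn, Fabp1 and Pck1) and in 7.10% of all 32851 windows. TATAAA was in 7 of the 27 windows and in 13.6% of all, and CCAAT was in 12 and in 37.4%. Shown are the windows of Alb, the most abundant member, of Serpina1a and Serpina1b, close copies whose levels at 96 h are set side by side below, and of Cyp2e1, an enzyme gene without the half-site, from 5′ to 3′ with GTTAAT or its reverse complement in capitals. A match is a run of letters and no evidence of binding.
Alb, chr5:90460620-90460919, plus strand: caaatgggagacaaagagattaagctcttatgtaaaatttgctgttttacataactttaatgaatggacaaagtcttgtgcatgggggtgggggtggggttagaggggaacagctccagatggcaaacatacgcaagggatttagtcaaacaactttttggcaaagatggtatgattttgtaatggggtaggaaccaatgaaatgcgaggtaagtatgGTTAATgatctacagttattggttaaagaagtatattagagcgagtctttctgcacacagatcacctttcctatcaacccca
Serpina1a, chr12:103863570-103863869, minus strand: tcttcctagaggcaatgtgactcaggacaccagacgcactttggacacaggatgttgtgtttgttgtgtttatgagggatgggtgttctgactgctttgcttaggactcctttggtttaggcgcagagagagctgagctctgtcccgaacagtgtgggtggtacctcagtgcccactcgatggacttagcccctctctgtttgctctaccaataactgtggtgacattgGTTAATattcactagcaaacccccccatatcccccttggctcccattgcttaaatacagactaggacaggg
Serpina1b, chr12:103738140-103738439, minus strand: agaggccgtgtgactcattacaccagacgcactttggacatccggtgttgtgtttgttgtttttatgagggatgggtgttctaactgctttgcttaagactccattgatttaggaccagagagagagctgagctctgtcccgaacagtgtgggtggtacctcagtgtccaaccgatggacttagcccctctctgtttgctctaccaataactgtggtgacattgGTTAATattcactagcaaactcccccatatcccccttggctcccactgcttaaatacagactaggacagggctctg
Cyp2e1, chr7:140763569-140763868, plus strand: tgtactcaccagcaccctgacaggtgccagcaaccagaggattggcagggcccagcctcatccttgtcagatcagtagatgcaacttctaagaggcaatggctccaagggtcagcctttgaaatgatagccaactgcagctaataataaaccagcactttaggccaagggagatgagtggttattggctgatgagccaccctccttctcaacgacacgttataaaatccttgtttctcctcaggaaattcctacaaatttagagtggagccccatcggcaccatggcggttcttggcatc
Counted from the start, the half-site began at position -32 in Alb, -21 in Serpina1a and -26 in Serpina1b. The windows of Serpina1a and Serpina1b had 275 of 300 bases in common.

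The libraries were made from the 3′ end of each transcript, so levels in CPM (counts per one-millionth of the TMM-scaled library) can be compared between genes without a correction for length. Totals lay between 2073171 and 7690892 counts per sample, the lowest in the 0 h sample of M3. The floor used here, 3 counts, was 0.386 to 1.51 CPM; without molecular identifiers, floors cover counting error only. The 13 HSC markers, led by Dcn and Ecm1, summed to 29792 to 34105 CPM at 0 h and 28343 to 33711 CPM at 3 h, with Gfap at 0 in M3 at both times and no other marker at 0. Later they were at 17.7% of the 0 h mean at 12 h and 6.37% at 24 h. The 13 markers of Kupffer cells and leukocytes, led by Lyz2 and Cd5l, summed to 482 to 594 CPM at 0 h, 299.6 to 532 CPM at 3 h and 37.7 to 60.3 CPM at 6 h. The 11 sinusoidal endothelial markers matched, led by Kdr and Fcgr2b, summed to 915 to 1323 CPM at 0 h, 1179.8 to 4299 CPM at 3 h and 325 to 1234 CPM at 6 h, and were at 7.85% of the 0 h mean at 96 h. The 6 erythrocyte markers, led by Hba-a1 and Hba-a2 and with Alas2 and Slc4a1 at 0, summed to 162 CPM in M2 and 353 CPM in M3 at 0 h, 0 to 59.02 CPM at 3 h and 0 CPM in all samples of 12, 24 and 96 h. The 8 cholangiocyte markers, led by Sox9 and Spp1, summed to 10.8 to 19.1 CPM at 0 h with 6 at 0 in both samples. The mean sum of each of these 5 lists was lower at 6 h than at 0 h, as for the hepatocyte transcripts, at 57.7% for HSCs, 63.2% for endothelial cells, 14.2% for cholangiocytes, 9.37% for Kupffer cells and leukocytes and 1.72% for erythrocytes; their part in the results was not tested.

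The hepatocyte transcripts were abundant in the fresh sort and scarce in culture. Here and below, values of a time are given in the order M1, M2 and M3, at 0 h M2 and M3, and at 24 h M1 and M2. The 37 genes summed to 7983 and 14721 CPM at 0 h, which was 0.713% and 1.41% of the library. The sums were 1153, 1041 and 2817 CPM at 3 h and 277, 336 and 795 CPM at 6 h. Every culture sample lay below both 0 h samples. The sums were 349.8, 259 and 365 CPM (12 h), 77.99, 38.1 and 299.98 CPM (18 h), 115 and 166 CPM (24 h) and 292, 169.8 and 143 CPM (96 h). Relative to the 0 h mean, the transcripts were at 14.7% ± 8.76 (SD, n = 3) after 3 h and 4.14% ± 2.50 after 6 h. Later levels were 2.86% ± 0.505 (12 h), 1.22% ± 1.24 (18 h), 1.24% ± 0.316 (24 h, n = 2) and 1.77% ± 0.699 (96 h).

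Samples of M1, M2 and M3 differed in the level of these transcripts. At 0 h M3 exceeded M2 in 32 of 36 genes, and its sum was 1.84 times as high. At 3 h M3 exceeded M2 in 31 of 35 genes and M1 in 34 of 35. At 96 h the order was the other way, with M3 lower than M2 in 18 of 23 genes. M2 and M3 were therefore each also set against the 0 h sample of the same number. In M2, 36 of 36 genes were lower at 3 h, against 51.8% of all genes. In M3 there were 35 of 36, against 48.9% of all genes; the exception, Ass1, was at 0 counts in the 0 h sample of M3. The summed transcripts of M2 and M3 were at 13.04% and 19.1% of their own 0 h sample after 3 h and at 2.13% and 0.969% after 96 h.

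**Figure D1:**
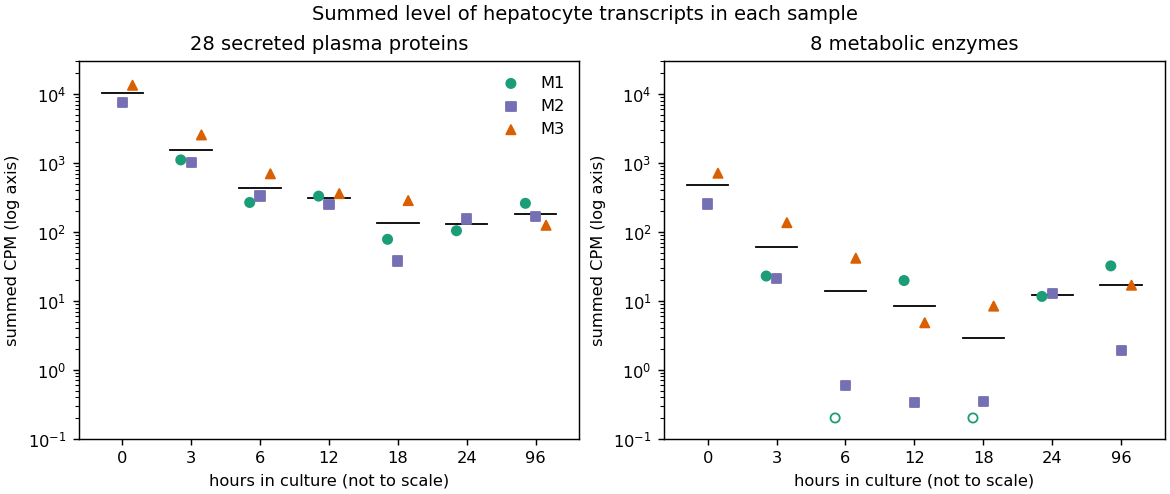
Summed CPM (log axis) of the secreted plasma protein genes (left) and the metabolic enzyme genes (right) in each sample against hours in culture (not to scale), with a colour and symbol for each of M1, M2 and M3, black bars for the mean of a time, and open symbols, drawn at 0.2, for sums of 0. The secreted sum was 7589 and 13367 CPM at 0 h and lay between 37.7 and 359 CPM in all samples from 12 h on.

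Detection was irregular from 6 h on. Of 504 values of the 36 tested genes in these samples, 240 (47.6%) were at 0 counts. The values above 0 had a median of 36.5 counts, and 210 of 264 were of 10 counts or more. A value of 10 counts or more stood beside another sample of the same time at 0 counts 88 times. The 18 h sample of M2 held counts for 8 genes, with Alb at 0, and that of M3 for 25.

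**Figure D2:**
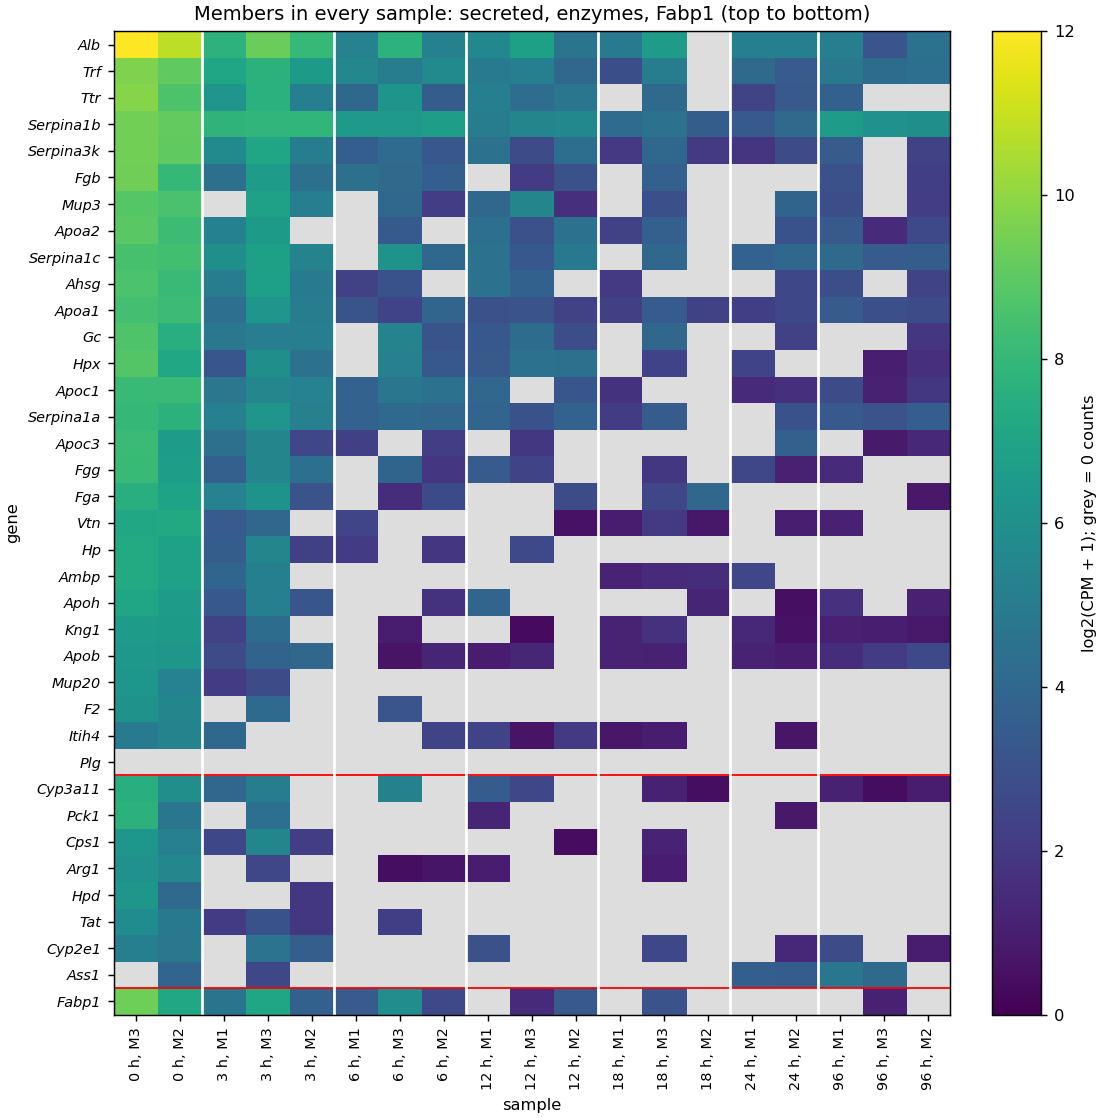
Level of each of the 37 genes, as log2(CPM + 1), in all 19 samples, with time from left to right, white lines between times, red lines between secreted proteins, enzymes and Fabp1, and grey for 0 counts. The 0 h columns are filled except for Plg and for Ass1 in M3, and from 6 h on 240 of 504 values are grey when Plg is left out.

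Each time was set against 0 h in one edgeR quasi-likelihood fit of all samples, and a gene was called at a Benjamini-Hochberg adjusted p below 0.1 and a change above 2-fold; calls below are of this fit unless another is named. At 3 h, 2 of 36 members were called lower (Apoa1 and Serpina1b), with 1.39% of all 15138 genes tested called lower. At 6 h there were 17 (14 secreted, 3 enzymes), with 4.35% of all genes, and at 12 h 23 (19 secreted, 3 enzymes and Fabp1), with 9.1%. The members called lower numbered 30 (24 secreted, 5 enzymes and Fabp1) at 18 h, with 8.21% of all genes, 15 (12, 2 and Fabp1) at 24 h, with 3.86%, and 30 (25, 4 and Fabp1) at 96 h, with 5.03%. By edgeR 0 members were called higher than 0 h at any time, and 0 were higher at an unadjusted p below 0.05 or by DESeq2. At 3 h 36 of 36 estimates were below 0, with a median log2 fold change of -2.94 (all genes: 0), while 6 had an unadjusted p below 0.05. For this unadjusted threshold the share of all genes was not taken, here and below. In 34 of 36 members each 3 h sample was below both 0 h samples, against 18% of all genes; the exceptions were Cps1 and Ass1.

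These counts depend on the fit and rest on few samples. When a time and 0 h were fitted without the other times, 15 members were called lower at 3 h, with 2.62% of the genes in that fit, 27 at 6 h, with 5.67%, and 31 at 24 h, with 9.32%. The same fits called 32 (12 h), 32 (18 h) and 34 (96 h), against 12.5%, 10.8% and 8.90% of the genes. DESeq2 on all samples called 4 at 3 h, with 3.75% of all genes. Here and below, the share of all genes called was not taken for fits with a single sample left out. Such counts show only how the number of members called moved. Without the 0 h sample of M3 the members called lower numbered 0, 8, 10, 13, 9 and 11 at the times from 3 to 96 h, and without that of M2 they numbered 9 at 6 h, 19 at 18 h and 17 at 96 h. The 6 h count was 10 without the 6 h sample of M1 and 10 without that of M2. The 18 h count was 18 and 19 without the 18 h samples of M1 and M2, and the 3 h count was 4 without the latter. The 24 h count was 4 without one or the other 24 h sample, and the 96 h count was 16, 16 and 13 without the 96 h samples of M1, M2 and M3.

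Among the plasma carriers, Alb (chr5:90460897-90476602, plus strand), the gene of albumin, was at 1813 and 4447 CPM at 0 h, 22.7% and 30.2% of the summed members. Alb was at 213, 259.6 and 609.8 CPM at 3 h and 39.5, 37.6 and 218 CPM at 6 h. M3 was the highest at all of these times. Later values of Alb were 48.2, 23.4 and 112 CPM (12 h), 29.2, 0 and 96.6 CPM (18 h), 35.6 and 35.5 CPM (24 h) and 33.8, 21.8 and 8.09 CPM (96 h). The log2 difference of Alb from 0 h was -3.12 (SE 1.22, edgeR adjusted p = 0.215) at 3 h, -4.99 (SE 1.31, adjusted p = 0.0222) at 6 h and -7.22 (SE 1.44, adjusted p = 0.00367) at 96 h, and Alb was called lower at each time from 6 h on. Trf, for transferrin, which carries iron, was at 532 and 818 CPM at 0 h, 131, 93.5 and 208 CPM at 3 h and 45.4, 51.3 and 32.3 CPM at 6 h. M1, M2 and M3 kept no order in Trf. Later values of Trf were 30.6, 15.3 and 34.8 CPM (12 h), 6.34, 0 and 31.7 CPM (18 h), 16.5 and 9.77 CPM (24 h) and 27.2, 19.6 and 17.9 CPM (96 h). Trf was called lower from 6 h on, by -3.97 (SE 0.99, adjusted p = 0.0167) at 6 h and -4.97 (SE 1.03, adjusted p = 0.00507) at 96 h.

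Ttr, for transthyretin, a carrier of thyroid hormone and of the retinol-binding protein, was at 405 and 917 CPM at 0 h, 75.97, 34.8 and 199 CPM at 3 h and 15.7, 10.7 and 72.9 CPM at 6 h. Its 3 h and 6 h samples overlapped. Later values of Ttr were 35.2, 25.1 and 18.4 CPM (12 h), 0, 0 and 16.6 CPM (18 h), 4.51 and 9.26 CPM (24 h) and 12.04, 0 and 0 CPM (96 h). Ttr was called lower from 12 h on, by -4.66 (SE 1.68, edgeR adjusted p = 0.0805; 0.102 with the M number as a block) at 12 h and -7.46 (SE 1.92, adjusted p = 0.021) at 96 h; its call at 24 h had an adjusted p of 0.089, or 0.127 with the block. Gc, for the vitamin D-binding protein, had a mean of 302 CPM at 0 h and was at 10.5% of it at 3 h. Hpx, for the haem carrier hemopexin, was at 10.7% at 3 h and 5.25% at 6 h. Both Gc and Hpx were called lower at 18 and 96 h. Hp, for haptoglobin, which binds haemoglobin, was at 14.3% at 3 h and was called lower from 12 h on (at 24 h, adjusted p = 0.0616, or 0.108 with the block). Against the floor of 3 counts per library, averaged over the libraries of a time, Hp was at least 228-fold, 268-fold and 213-fold lower at 18, 24 and 96 h, where all samples were at 0 counts. This bound and those below set the floor against the 0 h mean of M2 and M3. They hold for that mean, and a bound within M2 alone can be smaller. At 24 h there is no sample of M3. Ambp, the precursor of alpha-1-microglobulin, was at 0 counts in all samples of 6, 12 and 96 h, at least 203-fold, 258-fold and 213-fold lower, and was also called at 18 h (adjusted p = 0.0927; 0.127 with the block).

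Among the protease inhibitors, Serpina1b (chr12:103728156-103830373, minus strand), one of the genes of alpha-1-antitrypsin, was called lower at all 6 times and higher from 24 h to 96 h. Serpina1b was at 548 and 691 CPM at 0 h, 222, 241 and 239 CPM at 3 h and 85.7, 103 and 89.7 CPM at 6 h. It was at 33.1, 46.8 and 44.3 CPM (12 h), 17.1, 10.7 and 22.2 CPM (18 h) and 9.66 and 16.97 CPM (24 h). Samples of successive times did not overlap until 18 h and 24 h, which did. At 96 h Serpina1b was at 97.8, 61.02 and 65.9 CPM, above all samples of 12, 18 and 24 h. Against 0 h the log2 difference was -1.41 (SE 0.30, edgeR adjusted p = 0.0122) at 3 h, -5.53 (SE 0.41, adjusted p = 5.3e-07) at 24 h and -3.05 (SE 0.31, adjusted p = 9.27e-06) at 96 h. Serpina1b was at 37.8% of its 0 h mean at 3 h, the highest of the 36 members at that time, and at 12.1% at 96 h.

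From 24 h to 96 h Serpina1b rose by 2.48 (SE 0.35, edgeR adjusted p = 0.000731) on the log2 scale, with a range of 2.14 to 2.94 when single samples were left out. It was the one member called higher in that step, with 1.37% of all genes called higher. By edgeR 0 members were called lower in it, with 1.35% of all genes, 1 being lower at an unadjusted p below 0.05. At that unadjusted threshold 2 members were higher, and 16 estimates were above 0 and 13 below. DESeq2 called 0 lower and 2 higher, Serpina1b and Cyp3a11, the latter with 0 counts at 24 h and at most 5 counts at 96 h. Serpina1b made up 8.36% and 10.2% of the summed members at 24 h and 33.5%, 35.9% and 46.2% at 96 h. The sum of the members other than Serpina1b was 127 CPM ± 30.6 at 24 h (SD, n = 2) against 126 CPM ± 60.5 at 96 h (n = 3).

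Serpina1a and Serpina1c are close copies of Serpina1b. Over the last 300 bases of the annotated transcripts, 289 bases of Serpina1a and 289 of Serpina1c were identical to Serpina1b, and the annotated gene of Serpina1b overlaps a further copy, Serpina1d, on the same strand. How reads were divided between the copies is not given in the sources used here, so each level in the family is uncertain. Serpina1a was at 209.9 and 258 CPM at 0 h, 0 and 7.07 CPM at 24 h and 9.18, 10.97 and 7.41 CPM at 96 h, and its step from 24 h to 96 h was 1.34 (SE 1.27, edgeR adjusted p = 0.808). Serpina1c was at 332 and 362 CPM at 0 h, 12.7 and 15.6 CPM at 24 h and 16.6, 10.6 and 9.77 CPM at 96 h, and its step was -0.20 (SE 1.52, adjusted p = 1). Neither step was called; whether the steps of the copies differ was not tested. Serpina1a was called lower than 0 h at 6, 12, 18, 24 and 96 h (at 6 h, adjusted p = 0.0576, or 0.103 with the M number as a block), and Serpina1c at 12, 18 and 96 h, of which the 12 h and 96 h calls had adjusted p values of 0.166 and 0.145 with the block. Serpina1d, which is no member, was at 106 and 216 CPM at 0 h, 1.07 and 1.41 CPM at 24 h and 8.03, 4.81 and 4.72 CPM at 96 h. All 96 h samples of Serpina1d lay above both 24 h samples, as for Serpina1b. Whether the step of Serpina1d was called is not given here.

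Serpina3k, a serine protease inhibitor of mouse plasma, was at 540.3 and 687 CPM at 0 h, 50.1, 31.6 and 133 CPM at 3 h and 10.98, 8.55 and 17.2 CPM at 6 h. Its samples of these times did not overlap. Later values of Serpina3k were 22.01, 18.99 and 5.87 CPM (12 h), 2.92, 3.16 and 15.6 CPM (18 h), 2.57 and 5.78 CPM (24 h) and 10.04, 4.23 and 0 CPM (96 h). It was called lower from 6 h on, by -5.64 (SE 1.14, edgeR adjusted p = 0.004) at 6 h and -7.05 (SE 1.22, adjusted p = 0.00113) at 96 h. Ahsg, for fetuin-A, which binds calcium phosphate, was at 16.95% of its 0 h mean at 3 h and 1.12% at 6 h, and was called lower at 6, 18 and 96 h. Kng1, for kininogen, the precursor of bradykinin, was at 7.69% at 3 h and 0.321% at 6 h, and was called lower at 6, 12, 18 and 96 h. Itih4, for a heavy chain of the inter-alpha-trypsin inhibitor family, had a 0 h mean of 35.2 CPM and was called lower at 96 h (adjusted p = 0.0836; 0.109 with the block), where it was at 0 counts and at least 54.4-fold lower.

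Apolipoproteins are the protein parts of lipoprotein particles. Apoa2, of high-density lipoprotein, was at 297 and 487 CPM at 0 h, 38.1, 0 and 91.3 CPM at 3 h and 0, 0 and 9.68 CPM at 6 h. Its 3 h and 6 h samples overlapped. Later values of Apoa2 were 20.2, 22.2 and 6.94 CPM (12 h), 4.14, 0 and 11.9 CPM (18 h), 0 and 7.20 CPM (24 h) and 9.18, 5.20 and 1.68 CPM (96 h). Apoa2 was called lower at 6, 18 and 96 h, by -6.87 (SE 2.18, edgeR adjusted p = 0.0617) at 6 h and -6.21 (SE 2.12, adjusted p = 0.0885; 0.141 with the M number as a block) at 96 h. Apoa1, the main protein of high-density lipoprotein, was called lower at all 6 times, as was Serpina1b. The mean of Apoa1 was 316 CPM at 0 h, and it was at 13.7% of that at 3 h, 2.76% at 6 h and 2.38% at 96 h. The log2 difference of Apoa1 at 3 h was -2.86 (SE 0.62, adjusted p = 0.0117). Apoc1 was at 13.4% at 3 h and was called lower at 12, 18, 24 and 96 h. Apoc3 was at 11.7% at 3 h and was called lower at 6, 12, 18 and 96 h (at 6 h, adjusted p = 0.0957, or 0.269 with the block). Apob, the structural protein of very low-density lipoprotein, was at 13.9% at 3 h and was called lower at 6, 12, 18, 24 and 96 h, with adjusted p values of 0.148 at 24 h and 0.144 at 96 h under the block. Apoh, for beta-2-glycoprotein, was at 14.9% at 3 h and was called lower at 18 h alone; Prkca overlaps it on the opposite strand, and whether the counting used strand is not given in the sources used here.

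Fibrinogen is built from the chains encoded by Fga, Fgb and Fgg, and thrombin cuts it to fibrin. Fgb was at 257 and 671 CPM at 0 h, 20.9, 20.4 and 93.7 CPM at 3 h and 20.5, 10.9 and 16.99 CPM at 6 h. The lower 3 h samples lay close to the 6 h samples. Later values of Fgb were 0, 6.78 and 3.20 CPM (12 h), 0, 0 and 11.9 CPM (18 h), 0 and 0 CPM (24 h) and 6.88, 3.66 and 0 CPM (96 h). With both 24 h samples, M1 and M2, at 0, Fgb was at least 901-fold lower there than its 0 h mean. Fgb was called lower from 6 h on, by -4.85 (SE 1.69, edgeR adjusted p = 0.0978; 0.194 with the M number as a block) at 6 h and -7.08 (SE 1.88, adjusted p = 0.027) at 96 h. Fga was at 25.4% of its 0 h mean at 3 h and 1.63% at 6 h, and was called lower at 12, 24 and 96 h. Fgg was at 13.4% at 3 h and 2.86% at 6 h, and was called lower at 18 and 96 h. F2, for prothrombin, was found in culture in M3 alone, at 15.9 CPM at 3 h and 7.86 CPM at 6 h. It was called lower at 12 h (adjusted p = 0.0989; 0.103 with the block), where it was at least 107-fold lower. Vtn, for vitronectin, an adhesion protein of plasma and matrix, was at 5.63% at 3 h and was called lower at 12, 18 and 96 h (at 18 h, adjusted p = 0.09, or 0.11 with the block).

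Mup3 and Mup20 belong to the major urinary proteins, small pheromone carriers secreted by the mouse liver. The last 300 bases of their transcripts had 271 bases in common, and their levels are uncertain for that reason. Mup3 was at 379.6 and 461 CPM at 0 h, 0, 33.8 and 115 CPM at 3 h and 0, 3.58 and 15.7 CPM at 6 h. Later values of Mup3 were 15.3, 2.04 and 44.3 CPM (12 h), 0, 0 and 6.70 CPM (18 h), 0 and 13.5 CPM (24 h) and 6.31, 3.46 and 0 CPM (96 h). The culture samples of Mup3 overlapped between successive times and lay below both 0 h samples. Mup3 was called lower at 18 and 96 h, by -7.52 (SE 2.43, edgeR adjusted p = 0.0551) at 18 h and -7.04 (SE 2.39, adjusted p = 0.0852; 0.242 with the M number as a block) at 96 h. Mup20 had a 0 h mean of 58.98 CPM, was at 5.20% of it at 3 h and was at 0 counts in all samples from 6 h on, at least 86.96-fold lower at 6 h. It was called lower at 6, 12, 18 and 96 h, with adjusted p values of 0.116 at 6 h and 0.121 at 96 h under the block.

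The metabolic enzymes were less abundant from the start. Their 0 h means lay between 7.15 and 122 CPM with a median of 52.5 CPM, against 35.2 to 3130.0 CPM with a median of 275 CPM in the 27 secreted members detected. Cyp3a11 (chr5:145854426-145879964, minus strand), a cytochrome P450 that oxidises drugs and steroids, was at 59.4 and 185 CPM at 0 h, 14.6, 0 and 31.8 CPM at 3 h and 0, 0 and 37.5 CPM at 6 h. M3 was the highest at each of these times. Later values of Cyp3a11 were 10.4, 0 and 4.80 CPM (12 h), 0, 0.351 and 1.12 CPM (18 h), 0 and 0 CPM (24 h) and 1.15, 0.962 and 0.337 CPM (96 h). With both 24 h samples, M1 and M2, at 0, Cyp3a11 was at least 238-fold lower there than its 0 h mean. Cyp3a11 was called lower at 18 h (-7.86, SE 2.78, edgeR adjusted p = 0.0838) and 24 h (adjusted p = 0.097; 0.114 with the block). Pck1, the key enzyme of gluconeogenesis, was at 25.6 and 208 CPM at 0 h, 0, 0 and 20.04 CPM at 3 h, 1.39, 0 and 0 CPM at 12 h and 0 and 0.771 CPM at 24 h. In all samples of 6, 18 and 96 h Pck1 was at 0 counts, and it was called at these times. It was at least 172-fold, 193-fold and 181-fold lower than its 0 h mean, most of which came from M3. With the M number as a block the adjusted p values of Pck1 were 0.133, 0.109 and 0.138.

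Cps1, Ass1 and Arg1 belong to the urea cycle. Cps1, which opens it, was at 36.4 and 77.8 CPM at 0 h and 4.98, 3.60 and 44.6 CPM at 3 h, with M3 far above the others at 3 h. At 6 h Cps1 was at 0 in all samples, at least 84.2-fold lower than at 0 h. Later values of Cps1 were 0, 0.339 and 0 CPM (12 h) and 0, 0 and 1.30 CPM (18 h), and 0 in all samples of 24 h and 96 h. Cps1 was called lower in the step from 3 h to 6 h (edgeR adjusted p = 0.0807; 0.103 with the block) and against 0 h from 6 h on (at 24 h, adjusted p = 0.0689, or 0.124 with the block). Arg1, which releases urea, was at 46.6 and 65.8 CPM at 0 h and 0, 0 and 4.79 CPM at 3 h. Later values of Arg1 were 0, 0.597 and 0.365 CPM (6 h), 0.927, 0 and 0 CPM (12 h) and 0, 0 and 0.931 CPM (18 h), and 0 in all samples of 24 h and 96 h. Arg1 was called lower at 96 h (adjusted p = 0.0535), where it was at least 86.8-fold lower. Tat and Hpd break down tyrosine. Tat, at 27.8 and 55.2 CPM at 0 h, was at 10.7% of its mean at 3 h and at 0 in all samples from 12 h on, and was called lower at 12, 18 and 96 h. Hpd, at 16.3 and 81.3 CPM at 0 h, was at 1.96% at 3 h and at 0 in all samples from 6 h on, and was called lower at 6, 12 and 18 h, with adjusted p values of 0.235, 0.183 and 0.202 under the block; Psmd9 overlaps it on the opposite strand.

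Cyp2e1 and Ass1 were the tested members that edgeR called lower than 0 h at no time. Cyp2e1 (chr7:140763739-140774987, plus strand), a cytochrome P450 that oxidises ethanol, was at 26.6 and 35.1 CPM at 0 h and 0, 11.5 and 22.4 CPM at 3 h. At 6 h it was at 0 in all samples, at least 45.5-fold lower than at 0 h (edgeR adjusted p = 0.126). DESeq2 called Cyp2e1 lower at 6 h, with an adjusted p of 0.0417, and again from 3 h to 6 h. Later values of Cyp2e1 were 6.95, 0 and 0 CPM (12 h), 0, 0 and 5.03 CPM (18 h), 0 and 1.54 CPM (24 h) and 5.74, 0.962 and 0 CPM (96 h). All culture samples of Cyp2e1 lay below both 0 h samples. Ass1 (chr2:31470207-31520672, plus strand), for argininosuccinate synthase, was at 14.3 and 0 CPM at 0 h and 0, 0 and 5.01 CPM at 3 h. It was at 0 in all samples of 6, 12 and 18 h. Ass1 was at 11.6 and 10.5 CPM at 24 h and 25.2, 0 and 16.5 CPM at 96 h, which overlapped the 0 h samples. The log2 difference of Ass1 from 0 h was 0.62 (SE 2.99, adjusted p = 1) at 24 h and 0.95 (SE 2.80, adjusted p = 0.932) at 96 h, and its step from 18 h to 24 h had an adjusted p of 0.711.

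Fabp1 (chr6:71199827-71205023, plus strand), the fatty acid-binding protein of the hepatocyte cytosol, was at 141 and 645 CPM at 0 h, 24.5, 12.2 and 135 CPM at 3 h and 9.79, 5.37 and 58.3 CPM at 6 h. M3 was the highest at these times. Later values of Fabp1 were 0, 9.33 and 1.73 CPM (12 h), 0, 0 and 7.45 CPM (18 h), 0 and 0 CPM (24 h) and 0, 0 and 1.18 CPM (96 h). At 24 h, where M3 is missing, Fabp1 was at least 763-fold lower than its 0 h mean, most of which came from M3. It was called lower from 12 h on, by -6.71 (SE 1.97, edgeR adjusted p = 0.0332) at 12 h and -9.71 (SE 2.29, adjusted p = 0.0136) at 96 h.

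**Figure D3:**
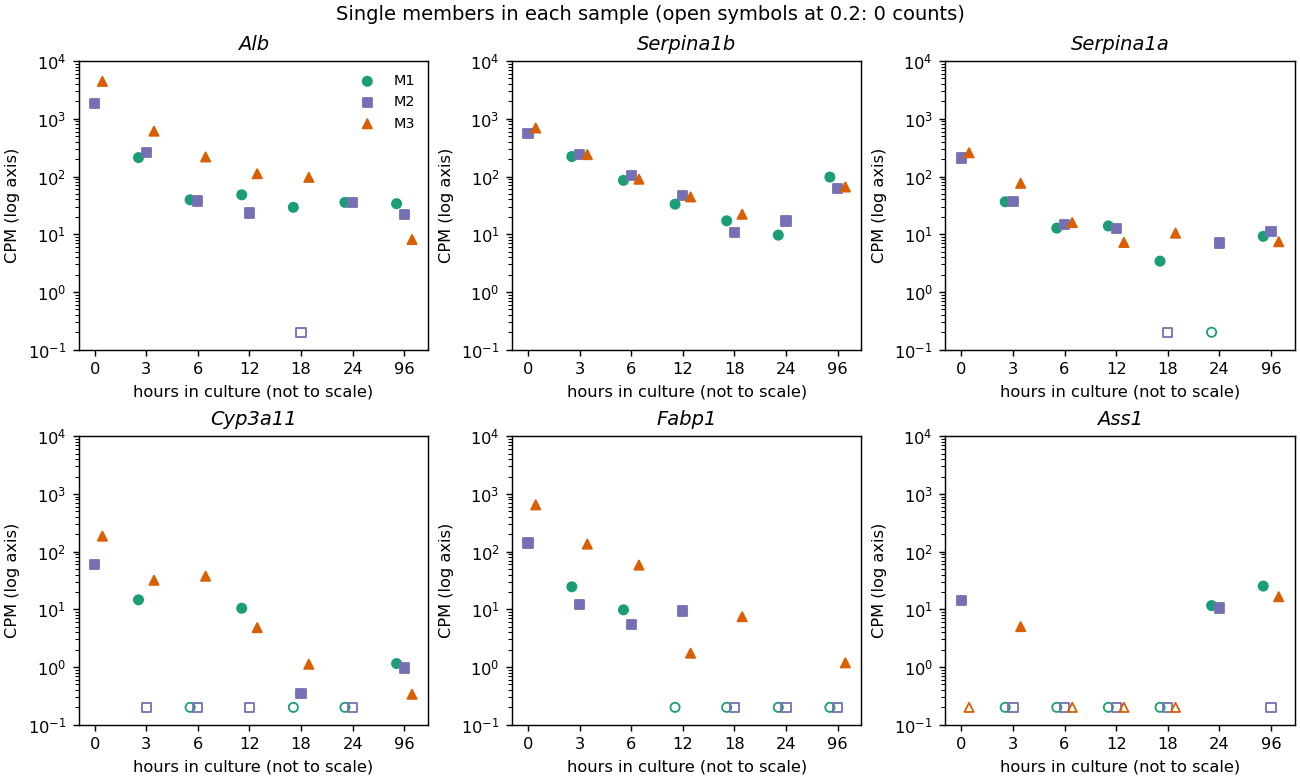
CPM (log axis) of Alb, Serpina1b, Serpina1a, Cyp3a11, Fabp1 and Ass1 in each sample against hours in culture (not to scale), with a colour and symbol for each of M1, M2 and M3 and open symbols, drawn at 0.2, for 0 counts. Serpina1b lay between 61.02 and 97.8 CPM at 96 h, above its 12, 18 and 24 h samples, while Ass1 was at 0 counts at 6, 12 and 18 h and detected at 24 h and 96 h.

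Secreted plasma proteins and metabolic enzymes were compared by the speed of their loss, as a description without a test. The summed secreted transcripts were at 14.8% ± 8.22 (SD, n = 3) of their 0 h mean after 3 h and 4.11% ± 2.21 after 6 h, then at 2.99% ± 0.541 (12 h), 1.27% ± 1.26 (18 h), 1.23% ± 0.333 (24 h, n = 2) and 1.76% ± 0.657 (96 h). The summed enzymes were at 12.4% ± 13.7 (SD, n = 3) after 3 h and 2.92% ± 4.94 after 6 h, then at 1.72% ± 2.11 (12 h), 0.605% ± 0.985 (18 h), 2.54% ± 0.187 (24 h, n = 2) and 3.53% ± 3.14 (96 h). From 3 h to 18 h the classes differed by less than the SD of the enzymes. These SDs are of the culture samples alone. They leave out the SD at 0 h, 67.0% of the mean for enzymes and 39.0% for secreted proteins (n = 2). Both classes come from the same samples, so the SD of one class does not measure the spread of their difference. At 24 h and 96 h most of the enzyme sum was Ass1, and without it, a choice made after seeing the data, the sum was at 0.244% ± 0.345 and 0.643% ± 0.721. In M3 the secreted and enzyme sums were at 19.1% and 19.2% of their own 0 h sample after 3 h, 5.20% and 5.85% after 6 h, 2.69% and 0.678% after 12 h, 2.13% and 1.18% after 18 h and 0.933% and 2.38% after 96 h. In M2 they were at 13.3% and 8.24% after 3 h, 4.35% and 0.236% after 6 h, 3.29% and 0.134% after 12 h, 0.497% and 0.139% after 18 h, 2.02% and 5.08% after 24 h and 2.21% and 0.761% after 96 h. Without Ass1 the enzymes were at 18.5% after 3 h and 0.0475% after 96 h in M3 and at 0.969% after 24 h in M2. The percent of the enzyme sum without Ass1 was below that of the secreted sum at each time in M2. In M3 it was below at each time but 6 h. This enzyme sum was 3, 2 and 2 counts in M2 at 6, 12 and 18 h and 2 counts in M3 at 96 h. These are at or below the floor of 3 counts, so the percents there cannot rank the classes. The secreted members were more abundant at 0 h, and those nearer in level are set against the same enzymes below.

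By single genes, all 36 members tested were at or below 50% of their 0 h mean at 3 h. A level of 10% or less was first reached at 3 h by 5 secreted members (Fgb, Mup20, Vtn, F2 and Kng1) and 3 enzymes (Arg1, Pck1 and Hpd), and at 6 h by 21 secreted members, 4 enzymes and Fabp1. Serpina1b and Cyp3a11 reached it at 12 h. These percents are of the 0 h mean of M2 and M3, most of which came from M3 for Pck1 and Hpd. Within M2, Hpd was at 16.3 CPM at 0 h and 2.88 CPM at 3 h, which is above 10%. The median log2 difference from 0 h at 3 h was -2.90 in the secreted members and -3.09 in the enzymes. With genes at 0 counts in all samples of a time set to the floor, the medians of secreted members and enzymes were -5.18 and -5.84 (6 h), -5.30 and -6.40 (12 h), -6.50 and -6.69 (18 h), -6.77 and -6.67 (24 h), and -6.66 and -6.34 (96 h). Of the 8 enzymes, 5, 3, 4, 5 and 5 were set to the floor at these times. Their medians thus depend on the floor and on their levels at 0 h, and cannot rank the classes by speed. Since the enzymes were less abundant, the 6 secreted members with a 0 h mean within the range of the enzymes (Apob, Apoh, Mup20, Itih4, F2 and Kng1) were also summed, a choice made after seeing the data. They were at 11.1% ± 7.65 after 3 h and 1.33% ± 1.16 after 6 h, then at 1.86% ± 2.19 (12 h), 0.680% ± 0.347 (18 h), 0.590% ± 0.0553 (24 h) and 1.26% ± 0.330 (96 h). In M3 these 6 were at 17.5%, 1.86%, 0.454%, 0.894% and 0.842% of their own 0 h sample at 3, 6, 12, 18 and 96 h. The enzymes without Ass1 were at 18.5%, 5.85%, 0.678%, 1.18% and 0.0475%, higher at each time but 96 h. In M2 the 6 were at 5.95%, 2.16%, 0.790%, 0.363%, 0.632% and 1.84% from 3 h to 96 h. The enzymes without Ass1 were at 8.74%, 0.250%, 0.142%, 0.147%, 0.969% and 0.806%, higher at 3 h and 24 h alone. Their sums in M2 at 6, 12 and 18 h and in M3 at 96 h were of 2 or 3 counts. At or below the floor, these cannot rank the groups.

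The rate of loss was also fitted as a line through the 14 samples of 3 to 24 h, which leaves the 0 h samples out. Of 33 members tested, 15 were called lower (12 secreted, Cps1, Tat and Fabp1), with 10.7% of all 13974 genes called; without the 3 h sample of M3 there were 5. The median slope was -0.175 log2 per hour over 27 secreted members and -0.356 over 5 enzymes, against 0.00168 over all genes. Arg1, Pck1 and Hpd did not pass the filter here, and the slopes of the classes were not matched for level. The slopes overlapped, from -0.480 to -0.104 in the secreted members and from -0.446 to 0.125 in the enzymes. Serpina1b had the smallest SE, with a slope by edgeR of -0.201 (SE 0.0189, adjusted p = 5.61e-06), a halving in 4.97 h. The slope of Alb was -0.153 (SE 0.0508, adjusted p = 0.0598), that of Trf -0.165 (SE 0.0451, adjusted p = 0.0241) and that of Apoa1 -0.142 (SE 0.0386, adjusted p = 0.0232). The steepest were F2 at -0.480 (SE 0.122, adjusted p = 0.0185), Hp at -0.471 (SE 0.117, adjusted p = 0.014) and Tat at -0.446 (SE 0.0835, adjusted p = 0.00345), all of which were at 0 counts in all samples of 18 and 24 h. With the M number as a block, the slopes of Ttr (adjusted p = 0.129), Serpina1a (0.103), Mup20 (0.115) and F2 (0.158) were no longer called.

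**Figure D4:**
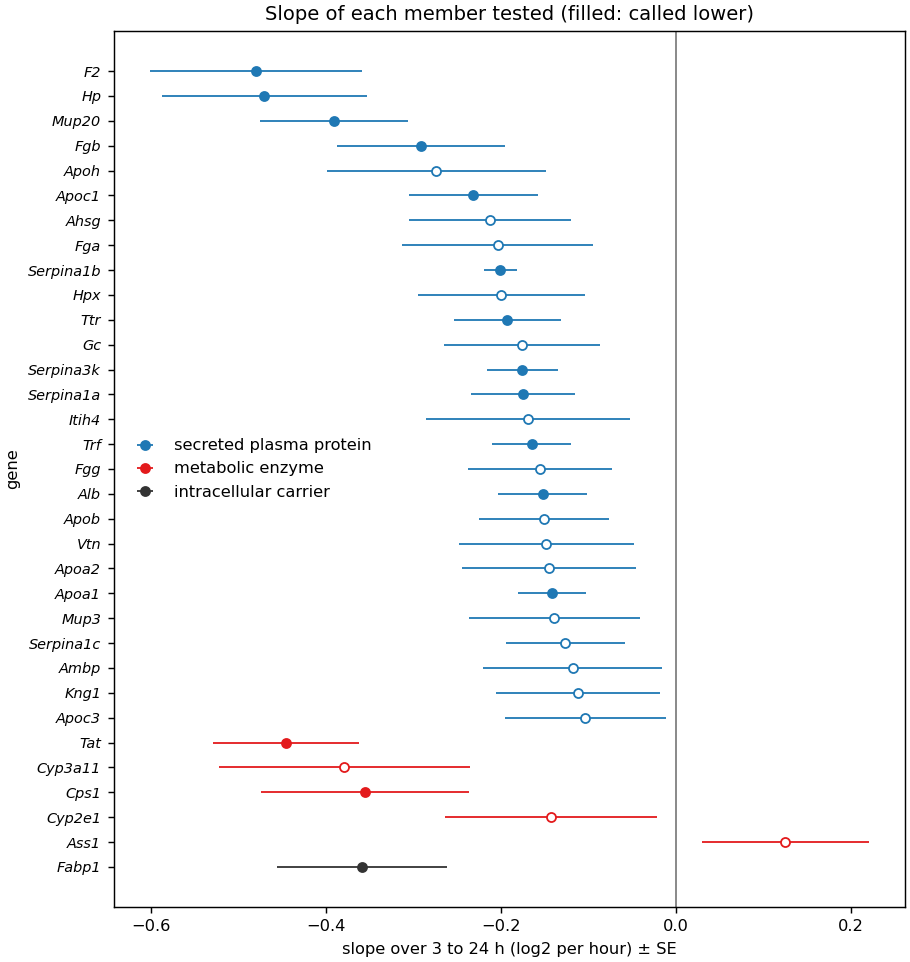
Slope over 3 to 24 h, in log2 per hour with its SE, of the 33 members tested, in blue for secreted plasma proteins, red for metabolic enzymes and black for Fabp1, with filled symbols where the slope was called lower. Ass1, at 0.125, is the one member with a slope above 0.

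Successive times were compared in the same fit. From 3 h to 6 h 36 of 36 estimates were below 0, with a median of -2.36 (all genes: -0.0382), and 3 members were called lower (Apoa1, Serpina1b and Cps1), with 1.99% of all genes called; the count was 1 without the 3 h sample of M3 and 1 without the 6 h sample of M1 or of M3. From 6 h to 12 h Serpina1b alone was called lower, by -1.16 (SE 0.28, edgeR adjusted p = 0.0587), with 1.42% of all genes; 21 estimates were below 0 and 11 above. That call was lost without the 6 h sample of M2 and without any of the 12 h samples, a count of 0 each time. From 12 h to 18 h edgeR called 0 members lower, with 0.152% of all genes called; 3 had an unadjusted p below 0.05 and DESeq2 called 1, Serpina1b. From 18 h to 24 h edgeR called 0 lower, with 0.0264% of all genes called, and 2 had an unadjusted p below 0.05. DESeq2 called 1, Cyp3a11, which had at most 6 counts at 18 h and 0 counts at 24 h.

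Further hepatocyte genes, from lists that do not overlap the 37, were followed beside them. Of all genes tested, edgeR called 4.35% lower at 6 h, 9.1% at 12 h and 8.21% at 18 h, and 4.19% higher at 3 h. Of 28 secreted proteins, 18 were tested, and 4 were called lower at 6 h and 8 at 12 h; their sum was at 18.3% of its 0 h mean at 3 h and 7.16% at 6 h. The most abundant were Rbp4, the retinol-binding protein, at 84.00 and 255 CPM at 0 h and 0, 1.70 and 5.60 CPM at 12 h, and Serpinc1, for antithrombin, at 89.5 and 108 CPM at 0 h and 1.16, 0.678 and 1.20 CPM at 12 h. Of 40 enzymes, 29 were tested, and 8 were called lower at 6 h and 12 at 12 h, while their sum was at 60.1% at 3 h. Mat1a, of methionine metabolism, was at 118 and 331 CPM at 0 h and 3.94, 0 and 0 CPM at 12 h. Oat, ornithine aminotransferase, was at 192 and 211 CPM at 0 h and 106, 208 and 233 CPM at 12 h, which overlapped. Glul, glutamine synthetase, singled out after its values were seen, was called higher at 3 h by 1.66 (SE 0.41, edgeR adjusted p = 0.0304), from 148 and 125 CPM to 539, 448 and 309 CPM. Without Glul and Oat, the 38 other enzymes were at 20.5% of 0 h at 3 h and 2.76% at 6 h. Of 11 transporters and receptors, 5 were tested and 1 was called lower at 6 h, with a sum at 9.23% at 3 h; Slco1b2, a carrier of organic anions, and Slc10a1, of bile acids, were at 39.1 and 28.6 CPM and 26.6 and 16.1 CPM at 0 h. Of 13 transcription factors, 5 were tested and 1 was called lower at 18 h, with a sum at 42.6% at 3 h; Nr1h4, the bile acid receptor FXR, and Cebpa were at 268 and 162 CPM and 6.77 and 43.7 CPM at 0 h and at 58.1, 82.7 and 93.00 CPM and 38.8, 38.1 and 20.3 CPM at 3 h.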

How the data were processed

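Samples were grouped by the culture time in their labels. The authors deposited raw counts per gene, whole numbers without normalization, from single-end QuantSeq 3′ reads that were trimmed and mapped with STAR to GRCm38 (mm10), followed by StringTie; versions, counting tool and annotation release are not given in the sources used here. Symbols were matched to 55141 of 55487 identifiers. Counts were filtered with filterByExpr, scaled by TMM and tested in R 4.3.3 with edgeR 4.0.16 (quasi-likelihood, Benjamini-Hochberg adjustment over all genes tested); the scripts were tested on simulated data. Totals ranged from 2073171 to 7690892 counts per sample. Gene positions are from GENCODE, promoters from RefSeq, both on GRCm38.

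The members and lists were chosen with earlier results of these data known. All members are named. Values per sample are given for the 8 secreted members and 4 enzymes highest at 0 h, for Fabp1 and for members that edgeR never called lower, and the 2 most abundant genes of each further list are named; copies within the Serpina1 and Mup families are given as uncertain. What the M number stands for is not stated, but same-numbered samples carry 1 date in the labels, which M1 and M3 share, and the number was used as the replicate block; deviations of same-numbered samples from the group means correlated by 0.0143 on average (51 pairs, lowest -0.072), those of other pairs by -0.00704 (103 pairs). As separate animals are not stated, p-values measure the spread between these samples. Alternatives were library-size scaling, DESeq2 1.42.0, no filter, the M number or the date in the labels as a covariate, fits of the compared groups only, a threshold of 0.05, and single samples left out. Class values were also taken as medians, within M2 and M3 and without Alb. Leaving out Ass1 and matching levels at 0 h were added after seeing the data.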

Additional observations from a re-analysis of the deposited data

How the results depend on the processing

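With the M number as a replicate block, the members called lower numbered 2, 15, 20, 26, 10 and 23 at the times from 3 to 96 h and 11 for the slope, and 1 was called higher from 24 h to 96 h. At a threshold of 0.05 there were 9 (6 h), 19 (18 h), 9 (24 h), 17 (96 h) and 0 from 6 h to 12 h. DESeq2 called 4 lower at 3 h, with 3.75% of all genes, and 2 higher in the last step. In the steps to 6, 18 and 24 h it called 7, 1 and 1 lower, with 5.43%, 1.51% and 0.661% of all genes. Fits of the compared groups only called 15 (3 h), 27 (6 h) and 31 (24 h), with 2.62%, 5.67% and 9.32% of the genes in each fit. They called 5 from 3 h to 6 h and 0 from 6 h to 12 h, with 4.7% and 1.4%. A slope over 0 to 24 h called 34 members. For this slope, the block, the threshold of 0.05 and single samples left out, the share of all genes called was not taken. Those counts show only how the number of members called moved. With single samples left out, the ranges were 0 to 4 (3 h), 8 to 20 (6 h), 10 to 27 (12 h), 13 to 31 (18 h), 4 to 19 (24 h), 11 to 32 (96 h), 1 to 4 (step to 6 h), 0 to 1 (step to 12 h), 0 to 1 (step to 18 h) and 5 to 18 (slope). The log2 difference of Ass1 at 96 h became -0.32 with the block and -0.36 with the date in the labels; with samples left out, Ass1 ranged over -8.13 to 6.10 (3 h), -0.37 to 8.74 (24 h) and -0.0262 to 9.09 (96 h), the ends set by the 0 h samples except for the lowest value at 3 h. The slope of Kng1 became 0.0107 with the block and ranged over -0.147 to 3.75e-06 with samples left out, and the step of Serpina1b from 18 h to 24 h over -0.73 to 0.0741.

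The secreted sum was at 2.02% of 0 h within M2 at 24 h and 0.933% within M3 at 96 h, the median of its members at 96 h was 0.757%, and its members at the levels of the enzymes were at 1.33%, 1.86% and 0.590% at 6, 12 and 24 h. The enzyme sum at 24 h was 13.7 CPM or 3.02% with library-size scaling, 5.08% within M2 and 0.244% without Ass1; the median enzyme was at 0% at 24 h and 0% at 96 h. Leaving out a 0 h sample gave 2.34 to 4.12% (12 h), 0.962 to 1.69% (24 h) and 1.38 to 2.42% (96 h) for secreted proteins and 1.72 to 4.83% (24 h) and 2.39 to 6.70% (96 h) for enzymes. The causes were not tested. A floor of 3 counts was worth 0.386 to 1.51 CPM, depending on the sample, and lower levels could not be followed.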
